A study of Mus musculus with 188 samples.

Results

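In single diploid hybrid mouse embryonic stem cells (mESCs), a 50 kb bin was in the 129-only state when its 129 homolog was called replicated and its Castaneus homolog was not. The bins described here were those in which this state recurred. In each autosomal bin the cells in the 129-only state were counted, the cells in the opposite state were subtracted, and bins with a net count of 2 or more were members. There were 2009 member bins among 46743 autosomal bins with a state in every cell, which was 4.30% of them, and they covered 100.45 Mb in 195 domains of adjacent bins. The members were chosen on the homolog states of the diploid cells, so those states are given as a description only. The study measured DNA copy number in single nuclei sorted by DNA content from S-phase. The diploid line was F121-9, a 129 x Castaneus hybrid with a high density of polymorphisms between homologs, and the haploid line was H129-2, which carries a 129 genome alone; both were grown feeder-free in 2i medium without further treatment. Labels were given for 96 diploid S-phase cells, 86 haploid S-phase cells and 6 haploid G1 cells, and values of 63 diploid and 75 haploid S-phase cells entered here. No label told separate cultures apart, so each line was a single sample, the cells were not independent replicates of a condition, and no p-value is given.

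Replication proceeds in megabase domains that start at characteristic times in S-phase. Early domains are mostly gene-rich and open, late domains mostly gene-poor and at the nuclear periphery, and homologs usually replicate at similar times. In a single cell a domain can nevertheless be copied on 1 homolog while the other waits, which leaves it at a copy number between the unreplicated and the fully replicated state. Persistent asynchrony is best known from imprinted genes, the inactive X chromosome and antigen or olfactory receptor genes.

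Sequence from 3 of the lead domains, described further below, is shown first, to place each on the map. The lines give the reference promoter nearest to the middle of the domain, from RefSeq for the build GRCm38.p6. Each runs from 250 bases before to 50 after an annotated start, which for Ntm lies inside the gene. It is the reference genome's sequence, not that of either homolog. Capitals mark each CG dinucleotide, a motif that reads the same on both strands. Herpud2 encodes a ubiquitin-like protein of the endoplasmic reticulum, Ccdc59 a coiled-coil protein and Ntm the neural cell adhesion molecule neurotrimin.
Herpud2, chr9:25151732-25152031, minus strand: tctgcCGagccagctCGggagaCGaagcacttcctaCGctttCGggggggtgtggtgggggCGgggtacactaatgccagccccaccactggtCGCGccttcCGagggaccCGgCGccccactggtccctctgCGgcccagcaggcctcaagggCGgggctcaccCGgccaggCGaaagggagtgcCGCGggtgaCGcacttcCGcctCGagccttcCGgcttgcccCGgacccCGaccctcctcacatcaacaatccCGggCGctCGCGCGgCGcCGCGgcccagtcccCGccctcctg
Ccdc59, chr10:105841229-105841528, plus strand: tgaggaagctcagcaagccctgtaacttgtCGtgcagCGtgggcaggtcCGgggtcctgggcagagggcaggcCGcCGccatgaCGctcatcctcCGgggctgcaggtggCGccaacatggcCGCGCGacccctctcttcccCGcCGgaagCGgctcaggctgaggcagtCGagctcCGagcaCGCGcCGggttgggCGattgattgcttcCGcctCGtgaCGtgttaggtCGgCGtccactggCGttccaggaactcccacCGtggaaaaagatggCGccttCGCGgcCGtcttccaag
Ntm, chr9:29412636-29412935, minus strand: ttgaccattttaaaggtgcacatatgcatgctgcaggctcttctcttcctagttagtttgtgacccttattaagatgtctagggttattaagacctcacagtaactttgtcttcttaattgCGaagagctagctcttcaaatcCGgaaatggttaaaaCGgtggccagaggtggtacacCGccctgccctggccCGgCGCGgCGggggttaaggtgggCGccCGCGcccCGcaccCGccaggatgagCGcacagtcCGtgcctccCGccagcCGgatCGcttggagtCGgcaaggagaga

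The Herpud2 promoter held 32 CG dinucleotides, the Ccdc59 promoter 31 and the Ntm promoter 19, against a median of 7 over all 32851 promoters of the same length. At least as many CG were present in 9.52%, 10.6% and 28.1% of all promoters, respectively. Herpud2 and Ccdc59 therefore have CG-rich promoters, which lie 23.1 kb and 41.4 kb from the middle of their domains. The Ntm promoter shown lies 62.8 kb from the middle. It is inside the gene, which spans chr9:28994749-29963269, and not at the gene's outer 5' end. Over whole 50 kb bins the base composition of members was that of the genome, with a median GC content of 41.5% (quartiles 39.0 to 44.5%) against 41.4% over all bins. Soft-masked repeats made up a median of 28.9% of a member bin and 31.0% of any bin, and 26.6% where the net count was 3 or more.

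The calls came unevenly from the cells, which bears on every count below. Of the 63 diploid cells, 44 had any 129-only bin and 42 had one at a member, and 21 contributed nothing to the members. The median cell was 129-only in 21 member bins. The cell in well F11 was 129-only in 680 of them (33.8%), H4 in 548, D10 in 398, H6 in 277 and G7 in 266. These 5 cells took part in 84.0% of the member bins and made 48.0% of the 4521 member calls. The 7 cells of plate row H made 34.6% of the member calls. Where cells differed in progress through S-phase, meaning the percentage of autosomal homolog bins replicated, the counts had no plain order: cells close to 55% ranged from none to 680 members.

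A pair of cells stood apart. C12 and F11 had smoothed profiles that correlated at r = 0.833 after the mean over cells was removed, against a median of -0.018 over the 1953 pairs of diploid cells. Their homolog states differed in 11.9% of the genome against a median of 19.7%, and other pairs, such as C1 and G3 with 7.32%, differed in fewer. They were 129-only together in 151 bins, of which 138 were members, and at 64 members they were the only 129-only cells. Whether they are separate cells was not tested. Without C12 and F11 1436 bins in 142 domains passed the rule, and 68.7% of the members remained. With only C12 left out, together with a cell of each of the other 2 similar pairs, 1917 bins in 191 domains passed. Leaving out row H gave 979 bins in 95 domains, and leaving out the 5 cells with the most 129-only bins gave 636 bins in 56 domains, 566 of them members.

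**Figure D1:**
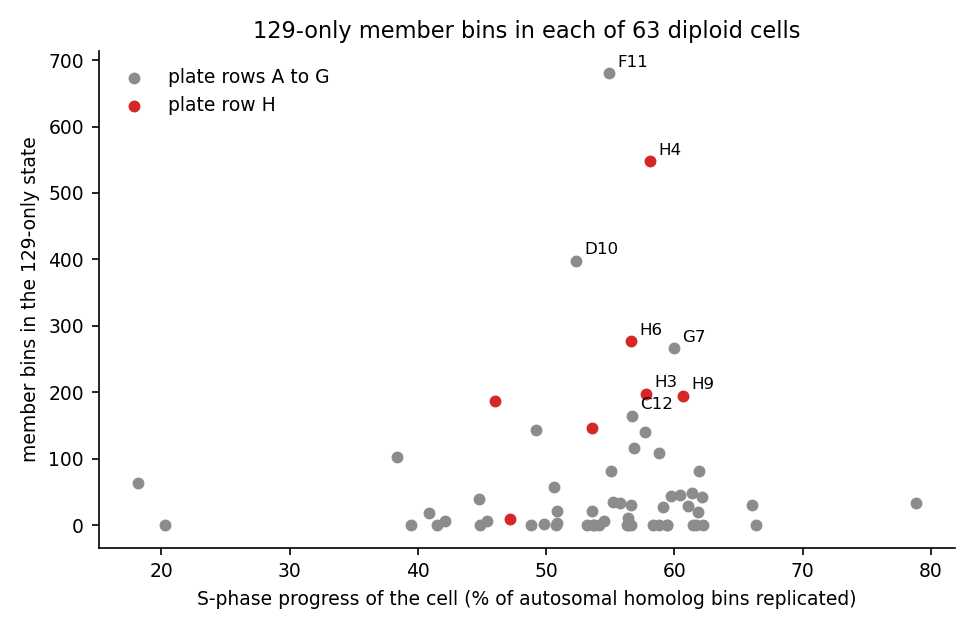
Number of member bins in the 129-only state (vertical axis) against progress through S-phase in percent (horizontal axis), 1 point for each of 63 diploid cells; red points are the 7 cells of plate row H. F11, H4 and D10 lie highest with 680, 548 and 398 member bins, while 21 cells lie at 0.

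Recurrence was shallow. A net count of 2 was reached by 1629 member bins, a net count of 3 by 331, of 4 by 41 and of 5, the highest, by 8. Exactly 2 cells were 129-only in 1563 member bins. In 1943 members no cell was in the opposite state, and 66 members had such a cell in addition. The members held 28.9% of all 15617 129-only calls. Just outside the rule lay 8655 bins with a net count of 1, and just inside it the 1629 with a net count of 2. The haploid line had replicated 55.5% of the former and 50.3% of the latter in mid-S-phase cells, and its difference from the diploid line had a median of 1.09 and 1.83 points. In the mirror direction 904 bins in 92 domains had a net count of -2 or less, and they are called Castaneus-first bins below. The authors' limit for calling a segment asynchronous was slightly less strict toward 129, and its part in the unequal numbers was not tested.

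The member domains had a median length of 400 kb (quartiles 200 to 700 kb), from 15 single bins of 50 kb to 2150 kb. Castaneus-first domains had the same median. The 30 domains of 1 Mb or more held 803 of the member bins. In 142 domains only 2 cells were 129-only anywhere, and in 53 domains more cells were. The 420 uninterrupted 129-only stretches of single cells that reached a member had a median length of 800 kb (150 to 4300 kb), and the 479 that reached none 650 kb. Hence a member domain was usually the overlap of longer stretches of different cells rather than the whole of each.

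Members lay on every autosome, in unequal shares. Chromosome 18 had the highest, with 169 bins in 11 domains (9.64% of its bins), followed by chromosome 8 with 196 bins in 18 domains (7.90%) and chromosome 12 with 144 bins in 10 domains (6.57%). The lowest shares were those of chromosome 16, with 9 bins in 1 domain (0.476%), and chromosome 11, with 28 bins in 5 domains (1.18%). On 3 chromosomes Castaneus-first bins were the more frequent: chromosome 13, with 3.35% of bins members and 8.30% Castaneus-first, chromosome 3, with 2.75% and 4.62%, and chromosome 19, with 1.40% and 1.49%. A few cells carried much of the leading chromosomes: D10 was 129-only in 129 member bins of chromosome 8 and F11 in 102 of chromosome 18. No cell was 129-only in more than 25% of any chromosome, and the highest such share was 11.7%, that of D10 on chromosome 8.

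The 12 lead domains were those with the highest net count in any bin, taken with ties broken by their number of bins. The scheduled time of each is its rank in the mean profile of the 75 haploid cells, placed on an S-phase of 10 h, so that it rests on cells that the rule did not use. For each bin of highest net count, the peak bin, the number of cells in each state is given, and percentages of cells carry exact binomial 95% intervals, which cover the counting of cells only. Mid-S-phase cells were those with 40 to 60% of the genome replicated, 46 diploid and 25 haploid cells with the same mean progress of 53.3%.

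The longest lead domain reached a net count of 5 and covered chr18:62150001-64300000, 43 bins. It was 129-only in A10, C12, D10, F11 and G4, of which C12 covered all 43 bins, D10 38, F11 26, A10 14 and G4 11. Its protein-coding genes include Piezo2, a mechanically gated ion channel, and the sialyltransferase gene St8sia3. At the peak bin, which overlaps Piezo2, 41 of 63 diploid cells had replicated both homologs and 17 neither, and none was in the opposite state. The domain was scheduled at 4.87 h and its peak bin at 5.004 h. Its 5 cells had reached 49.2 to 58.8% of S-phase, so that they were within 0.872 h of the peak bin's time. Over the whole domain mid-S-phase haploid cells had replicated 56.7% of it, against 90.7% of the 129 and 84.1% of the Castaneus homologs of diploid cells. At the peak bin alone the values were closer, 60% of haploid cells against 71.7% and 60.9%. The similar cells C12 and F11 are both among the 5.

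The domain chr9:24700001-25650000, 19 bins, also reached 5, in F6, H3, H6, H8 and H10, 4 of them from row H. It holds Tbx20, a T-box transcription factor of the developing heart, Herpud2, the cytoskeletal GTPase gene Septin7 and Eepd1, an endonuclease/exonuclease/phosphatase family gene. At its peak bin 29 diploid cells had replicated neither homolog, 29 both and 5 the 129 homolog alone. Here too the haploid line was behind. It had replicated the peak bin in 7 of 25 mid-S-phase cells (28%, 12.1 to 49.4%), against 54.3% (39.0 to 69.1%) for the 129 and 43.5% for the Castaneus homolog. The domain as a whole was replicated in 16.6% of haploid and in 49.1% (129) and 41.6% (Castaneus) of diploid homologs. It was scheduled at 6.28 h and its peak bin at 5.89 h, and the 5 cells were 0.105 to 1.29 h ahead of the peak bin's time.

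The domain chr10:105450001-106150000, 14 bins, reached 5 in G7, H4, H6, H9 and H10. It holds part of Tmtc2, which encodes a transmembrane protein with tetratricopeptide repeats, the methyltransferase-like gene Mettl25, and Ccdc59. At its peak bin 50 of 63 diploid cells had replicated neither homolog and 8 both. All 5 cells were ahead of the 6.68 h scheduled for the peak bin, by 0.616 to 1.32 h, and the domain was scheduled at 7.07 h. In mid-S-phase 12.9% of it was replicated in the haploid line, close to the 18.6% and 12.4% of the 129 and Castaneus homologs.

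The remaining lead domains had net counts of 3 or 4 and ranged from the first to the last hour of S-phase. The domain chr9:28650001-30050000 (28 bins) holds Ntm and 6 of the 24 bins of Opcml, neighbouring genes of the IgLON family of neural adhesion molecules. This domain was scheduled at 7.93 h and its peak bin at 7.74 h. It was 129-only in A10, H6, H8 and H10, between 1.87 and 3.14 h before the peak bin's time. At its peak bin 54 diploid cells had replicated neither homolog and 5 both, and 0 of 25 mid-S-phase haploid cells had replicated it, which allows a share of up to 12%. Over all progress stages 13 of 75 haploid cells had.

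On chromosome 1, 3 lead domains were found. In chr1:54050001-55250000 (24 bins), which holds 14 genes from Hecw2 to Boll and among them the splicing factor gene Sf3b1 and the mitochondrial chaperonin genes Hspd1 and Hspe1, the cells were A2, B7, C12 and F11. A2 was an early cell at 18.2% progress, 1.90 h before the 3.72 h scheduled for the peak bin. The others were 1.37 to 1.96 h after that time, and the domain was scheduled at 3.8 h. In chr1:82200001-83300000 (22 bins) lay 12 genes from Irs1, the insulin receptor substrate, to Sphkap, among them the basement membrane collagen genes Col4a3 and Col4a4. The 4 cells at its peak bin were A10, B11, H3 and H6, all 1.44 to 1.65 h past the 4.23 h scheduled for that bin. This domain was scheduled at 5.18 h. In chr1:57900001-58750000 (17 bins) the cells were D10, F11, G10 and H4, 1.69 to 2.5 h past the 3.54 h scheduled for its peak bin. The domain was scheduled at 4.09 h. It holds 16 genes from Spats2l to Cflar, including the aldehyde oxidase genes Aox1 to Aox4 and Orc2, a subunit of the origin recognition complex. At its peak bin 59 of 63 diploid cells had replicated both homologs and none had left both unreplicated, 0 of 63, which allows a share of up to 4.76%; the 4 129-only cells were the only ones with an unreplicated homolog.

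In chr10:55700001-56800000 (22 bins), with the cilium gene Tbc1d32, Msl3l2 and the connexin gene Gja1, the cells were A5, B11, F3 and H3. They lay on both sides of the 5.18 h scheduled for the domain's peak bin, while the domain was scheduled at 6.08 h. Of the 12 peak bins this one had the haploid line furthest ahead, with 14 of 25 cells (56%, 34.9 to 75.6%) against 45.7% of 129 and 39.1% of Castaneus homologs. In chr4:153400001-154100000 (14 bins) lay Ajap1, A430005L14Rik, the apoptotic nuclease gene Dffb, Lrrc47, Smim1, Ccdc27 and the p53 family member Trp73. Its cells were B11, C11, G3 and H4, 3.44 to 3.96 h past the 2.22 h scheduled for the peak bin, while the domain was scheduled at 3.43 h. This domain had the highest GC content of the 12, 50.3%.

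The last 3 lead domains lay at the ends of S-phase. Csmd1, a very long gene for a membrane protein with CUB and sushi repeats, fills most of chr8:14900001-16950000 (41 bins), which also holds Cln8, Arhgef10, Kbtbd11 and Myom2. D10, F11 and H6 were 129-only at its peak bin, 3.65 to 4.09 h before the 9.32 h scheduled for that bin. The domain was scheduled at 9.02 h, and at the peak bin 51 of 63 diploid cells had replicated neither homolog. In chr17:84450001-86100000 (33 bins), scheduled at 0.822 h, the cells C12, F11 and H10 had still not replicated the Castaneus homolog 4.54 to 4.85 h later, when 58 of 63 cells had both. It holds 13 genes from Thada to Srbd1, among them the sterol transporter genes Abcg5 and Abcg8 and the homeobox genes Six2 and Six3; without the similar pair it had 1 cell. In chr14:112900001-114500000 (32 bins) there was no protein-coding gene, and GC content was 36.9%. The domain was scheduled at 9.14 h. A10, H4 and H8 were 129-only 2.93 to 4.2 h before the time scheduled for its peak bin, which was earlier than that of the domain. No diploid cell had replicated both homologs at the domain's peak bin, 0 of 63, which allows a share of up to 4.76%. Of mid-S-phase haploid cells 0 of 25 had replicated it, which allows up to 12%. Over all progress stages 16 of 75 haploid cells had, but haploid cells reached 88.4% progress and diploid cells 78.8%.

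**Figure D2:**
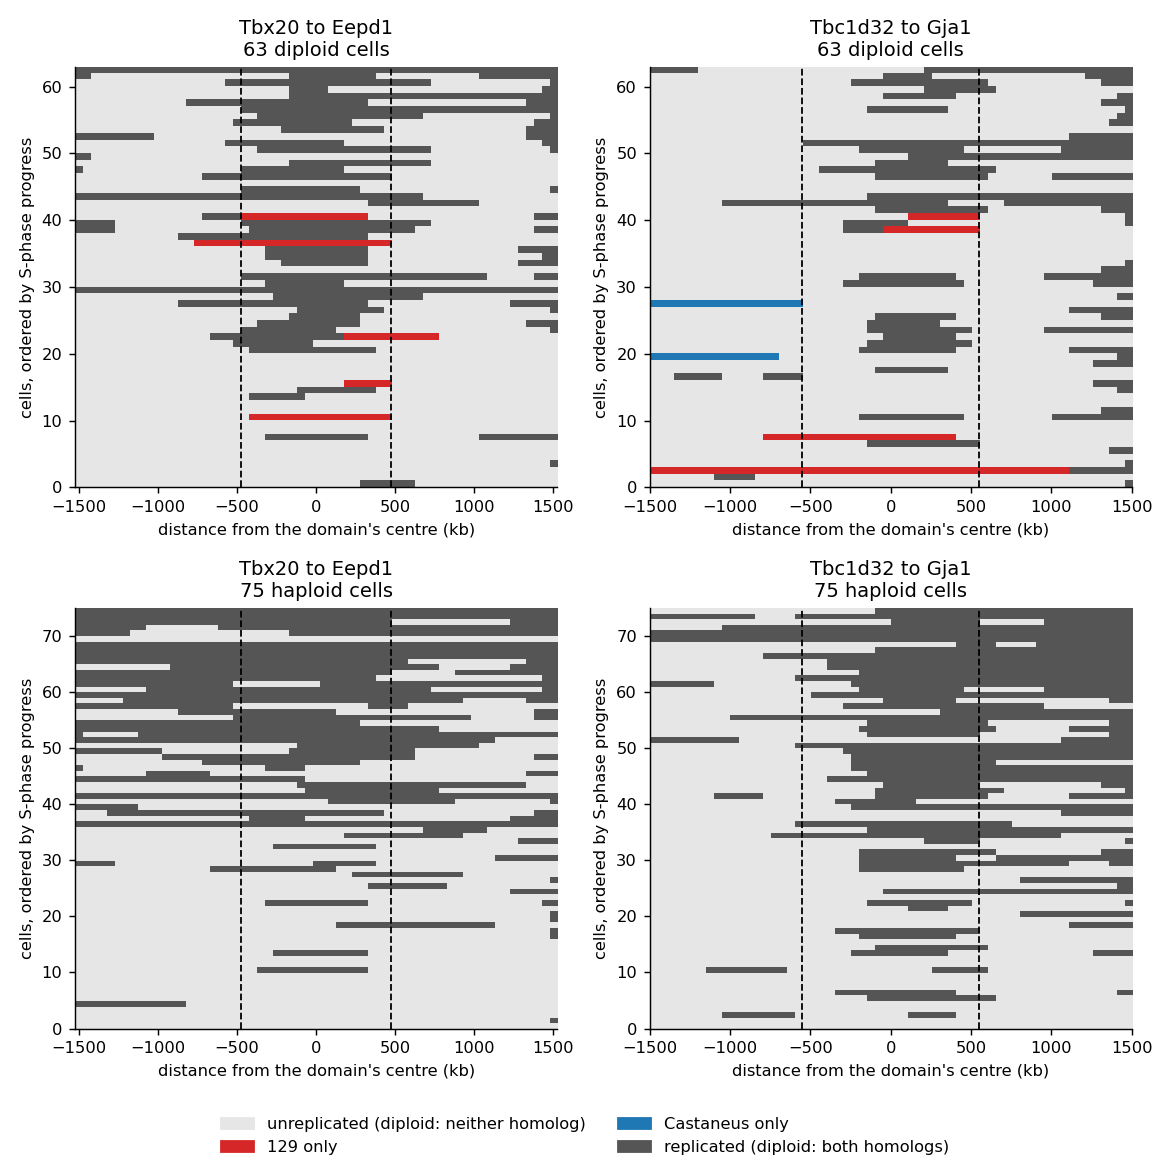
States of single cells (rows, ordered by S-phase progress) against distance from the centre of a domain in kb, for the lead domains with the haploid line furthest behind (left, Tbx20 to Eepd1) and furthest ahead (right, Tbc1d32 to Gja1) at the peak bin; dashed lines are the domain's ends, red is 129 only, blue Castaneus only. The 5 red cells on the left and 4 on the right lie among cells of similar progress with both homologs or neither replicated.

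The smoothed copy number score, which was computed before reads were parsed by homolog, was set beside the calls. In the 32 cells with at least 20 usable 129-only member bins, their mean score was -0.337 ± 0.317 (SD over cells), against -0.663 ± 0.145 in bins of the same cell scheduled within 1 h with neither homolog replicated and 0.247 ± 0.170 with both. The score is centred and scaled in each cell by the authors and has no fixed unit. On a scale from 0 (neither) to 1 (both) the 129-only bins lay at 0.352 ± 0.286 (n = 32 cells, -0.485 to 0.908). In 29 of the 32 cells the value was between 0 and 1 and in 3, A5, B4 and G7, it was below 0. Castaneus-only calls at Castaneus-first bins lay at 0.331 ± 0.379 in 21 cells, so the directions differed by less than the spread between cells. The 129-only bins were thus at intermediate copy number in most cells, nearer to the unreplicated bins on average. The binary state given to both homologs before parsing comes from the same score, so this readout is not fully separate from the calls.

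**Figure D3:**
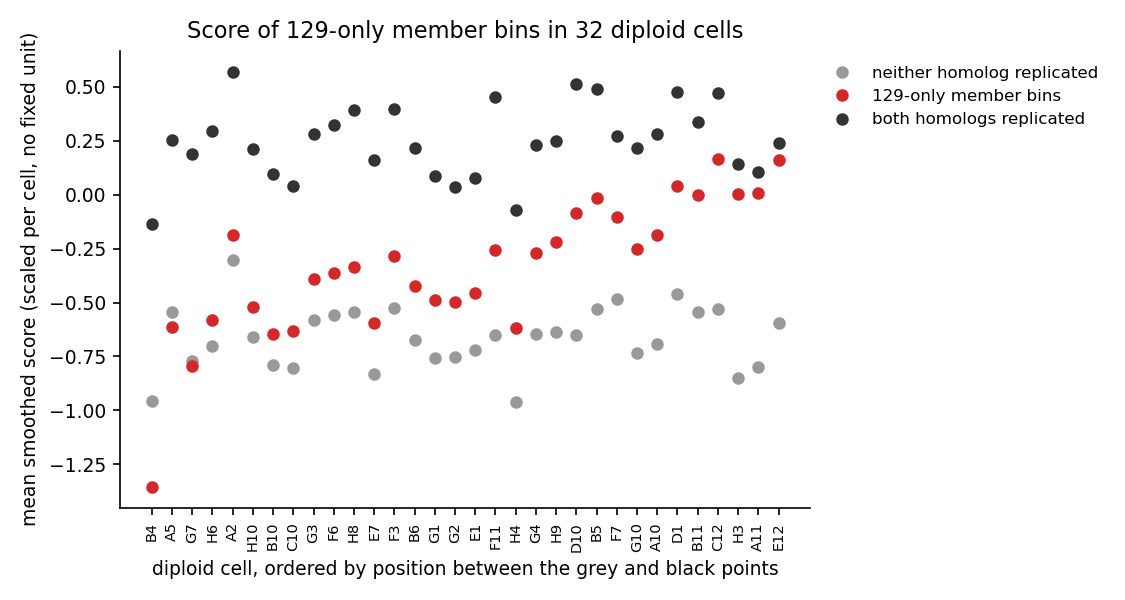
Mean smoothed score (vertical axis, scaled per cell) of 129-only member bins (red) and of bins of the same scheduled time with neither homolog (grey) or both (black) replicated, for 32 diploid cells ordered by the position of the red point between the others. In 29 cells the red point lies between grey and black, and in 3 it lies below grey.

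The scheduled time of members covered the whole S-phase. The 1957 members with a scheduled time had a median of 5.20 h (quartiles 3.13 and 7.41 h), against 5 h over all 45113 such bins. By 1 value per domain the median was 4.94 h, with 99 domains before 5 h and 96 after, so no shift to either side of mid-S-phase held. Between 3 and 7 h lay 46.7% of members and 40% of all bins. Hour by hour, the share of bins that were members ranged from 2.68% at 2 to 3 h to 6.12% at 5 to 6 h, and it was 4.5% in the first hour and 4.52% in the last. Where the net count was 3 or more, the median was 4.94 h and 51.6% of bins lay between 3 and 7 h. Castaneus-first bins had a median of 5.82 h and fell to 0.776% of bins in the first hour. Most diploid cells were in mid-S-phase.

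Within a domain the schedule was not flat. Over the 137 domains with at least 5 scheduled bins the earliest and the latest bin differed by a median of 1.28 h, from 0.0532 to 5.52 h. Yet members were not placed on the steepest parts of the profile: the scheduled time changed over 500 kb by a median of 0.891 h at members and 1.02 h over all bins, and by 2 h or more at 17.8% of members and 22.2% of all bins.

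**Figure D4:**
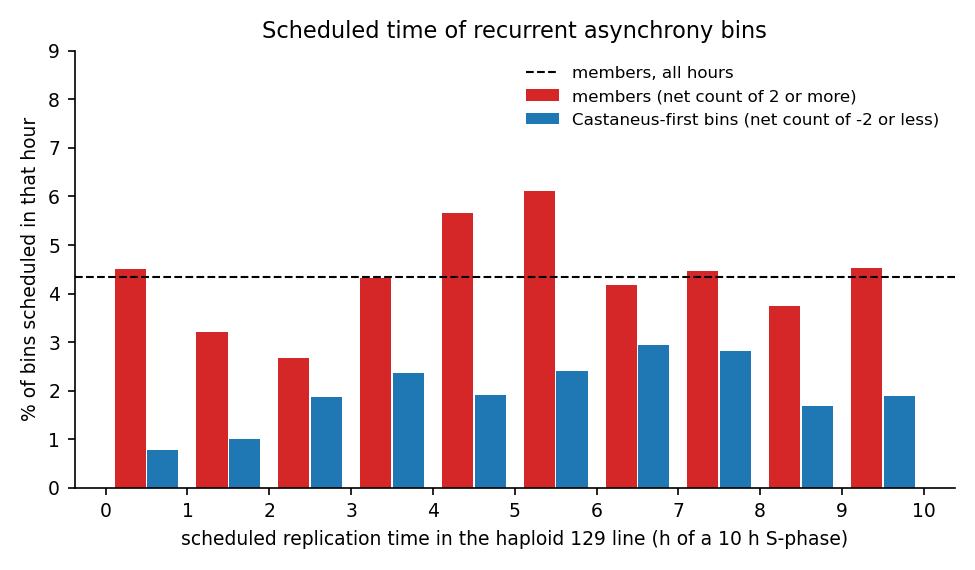
Percentage of the bins scheduled in each hour of S-phase that were members (red) or Castaneus-first (blue); the dashed line is the members' share of all bins with a scheduled time, 4.34%. Members are most frequent at 4 to 6 h, 5.65 and 6.12%, and least at 2 to 3 h, 2.68%.

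The time from scheduled replication of a call is the scheduled time of the bin minus the hours that the cell had progressed. For 4412 calls at members it had a median of -0.415 h (quartiles -2.44 and 1.81 h), against -0.389 h over all bins and all cells. Calls within 1 h of schedule were 23.4% of those at members and 20% of all bins and cells, and calls over 3 h away were 35.0% and 40.5%. Before schedule came 44.7% of the member calls, against 46.1% of all bins and cells and 43.1% of all 129-only calls. The schedule is that of the haploid line, and whether the 129 homolog was early or the Castaneus homolog late was not tested. For Castaneus-only calls at Castaneus-first bins the median was 0.446 h. Recurrent 129-only calls were therefore spread over nearly the same range of hours as the bins of any cell, with a small excess near the schedule that was not tested.

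The haploid line allows a view of the 129 genome in cells that the rule did not use. In 25 mid-S-phase haploid cells 50.4% ± 6.35 of member bins were replicated, against 53.3% ± 4.91 of all bins (SD over cells). In the 46 mid-S-phase diploid cells the 129 homolog was replicated at 51.5% and the Castaneus homolog at 47.4% of members, a difference that the rule itself sets, and at 53.4% and 53.2% of all bins. Member bins were thus replicated less often than the average bin in mid-S-phase haploid cells. Both diploid homologs also had lower shares at members, but members were chosen on their states. In 11 haploid cells below 40% progress the shares were 26.1% ± 4.94 of members and 31.5% ± 5.01 of all bins, and in 39 cells above 60% they were 74.4% ± 8.21 and 74.1% ± 8.16. Within the same haploid cell the difference between members and all bins was -5.47 ± 1.52 points below 40% progress, -2.88 ± 2.01 in mid-S-phase and 0.301 ± 1.78 above 60% (SD over cells). Members were below the average bin in 11 of 11, 24 of 25 and 16 of 39 cells, respectively.

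Per bin, the haploid share minus the mean of both diploid homologs had a median of 1.09 points at members (quartiles -4.78 and 7.61), against 0 over all bins and -2.17 at Castaneus-first bins. The spread of the members' median over left-out diploid cells, 2.03 points, was larger than the median itself. It was 2.17 points by 1 value per domain and 2.44 points without the 5 cells with the most 129-only bins. The median was -0.696 points against the 129 homolog alone and 3.22 points against the Castaneus homolog alone, which again follows from how members were chosen. Over domains 115 had a median above 0 and 80 below. The haploid share was higher by 20 points or more at 168 members (8.36%), where the background over all bins was 5.57%, and lower by as much at 161 (8.01%), where it was 7.08%. The first share lay above its background and the second close to it. Where the net count was 3 or more the shares were 7.63% higher and 12.1% lower. Without C12 and F11 the lower calls were 66 of 1436 members (4.60%, against 6.96% of all bins), and the higher ones 128 (8.91%, against 5.93%). Without row H the shares were 10.3% lower (7.27% of all bins) and 9.30% higher (5.81% of all bins). The lines differ in ploidy and genetic background together, and these cannot be told apart.

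Some domains differed widely between lines on both homologs. They were picked after their values were seen. At chr9:75650001-76000000, with Scg3, a granin, and Bmp5, a bone morphogenetic protein, mid-S-phase haploid cells had replicated 76.6% against 37% and 32.6% of 129 and Castaneus homologs. At chr4:15800001-16100000, with the calcium buffer gene Calb1, Decr1, the DNA repair gene Nbn and Osgin2, the values were 57.3% against 15.6% and 13.4%. In the other direction, chr6:3550001-3900000, with Vps50 and the calcitonin receptor gene Calcr, was replicated in 30.3% of haploid cells and in 62.4% and 58.1% of diploid homologs. At chr3:105900001-106700000, with the chitinase-like genes Chil3 to Chil6 among its 16 genes, the values were 23.3%, 57.3% and 55.2%. In each of these domains 2 cells were 129-only. The median difference per bin between the haploid line and the mean of both diploid homologs was 43.4, 42.8, -33.2 and -32.8 points, respectively. The diploid homologs lay within 5 points of each other, which follows from the calls, as they differ only in the 2 129-only cells.

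**Figure D5:**
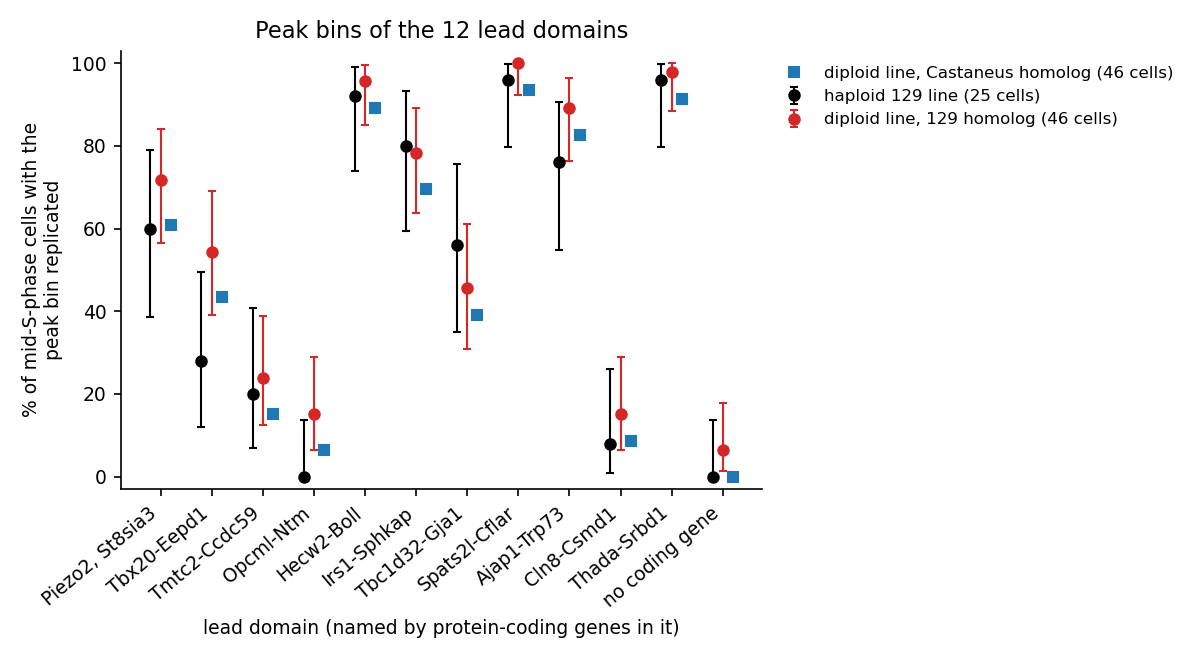
Percentage of mid-S-phase cells in which the peak bin of each of the 12 lead domains was replicated, in the haploid 129 line (black, 25 cells) and on the 129 (red) and Castaneus (blue) homologs of the diploid line (46 cells); bars are exact binomial 95% intervals over cells. The red points lie above the blue by choice of the bins, and the black bars overlap the red in all 12.

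Haploid cells can also be compared with each other. At members 21.1% of pairs of mid-S-phase haploid cells had different states, against 18% over all bins and 20.6% over bins of the same scheduled hours. The excess of 0.594 points turned to -0.692 where the net count was 3 or more. It was 1.67 points without row H, and its spread over left-out diploid cells was 0.741 points.

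Members held 6.65 protein-coding genes per Mb, by gene midpoint, against 8.47 over all bins and 6.24 in Castaneus-first bins. The standard error of the members' value over left-out cells was 1.07. There was no protein-coding gene in 37 domains, 1 to 8 in 137 and more in 21. The highest number was 64, in chr8:69650001-70900000, a domain of D10, H4 and H8. In all 747 of 19823 protein-coding genes (3.77%) overlapped a member bin. Of 216 genes of 500 kb or more 19 did (8.8%), and a longer gene overlaps more bins.

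The gene lists taken for their known relation to replication or asynchrony were mostly thin at members. Of 54 imprinted genes 1 overlapped a member bin, Calcr, and of 253 antigen receptor segments, 34 clustered protocadherin genes, 39 Hox genes and 29 pluripotency genes 0 did. Olfactory receptor genes did in 25 of 1089 cases (2.30%), in 3 clusters: Olfr687 to Olfr692 on chromosome 7 in G7 and H3, Olfr1351 to Olfr1356 with Olfr8 and Olfr57 on chromosome 10 in B10 and H6, and 11 genes from Olfr1491 to Olfr1505 on chromosome 19 in H4 and H7. The clusters were scheduled at 5.64 to 6.23 h, 3.34 to 4.60 h and 7.12 to 7.82 h. Of 224 vomeronasal receptor genes 1 did, Vmn2r80, beside the cluster on chromosome 10. These shares lay near or below the 3.77% of all genes.

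Other lists had a few members each, and their shares are set beside the 3.77% of all protein-coding genes. Of 22 fragile-site genes 4 overlapped member bins (18.2%). They were Csmd1, the tumour suppressor gene Wwox, the alpha-catenin gene Ctnna3 and Magi2, a scaffold of cell junctions. All are long, and a longer gene overlaps more bins. Csmd1 had 29 member bins of 34, Ctnna3 16 of 33, Magi2 7 of 31 and Wwox 6 of 20. Of 27 lineage regulators 3 did (11.1%), Myod1, Mesp1 and Gata4, the regulators of muscle, early mesoderm and heart or endoderm fate. Myod1 (scheduled at 0.419 h, cells B5 and F11) and Mesp1 (1.40 h, H4 and H6) were replicated in all 25 mid-S-phase haploid cells and in 91.3% and 93.5% of Castaneus homologs. Gata4 (2.49 h) was 129-only in D10 and H3. So were 5 of 43 defensin genes (11.6%), all in the domain of Gata4: Defb30, Defb42, Defb43, Defb47 and Defb48. Of 30 replication genes 2 overlapped member bins (6.67%), Orc2 and Ticrr, a factor needed to start origins, which lies in the domain of Mesp1. Of 362 zinc finger genes 11 did (3.04%): Zfp120, Zfp521, Zfp593, Zfp608, Zfp651, Zfp710, Zfp866, Zfp869, Zfp949, Zfp963 and Zfp964. Among them Zfp608 had the highest net count, 3, in G2, H3 and H4 at 7.51 h, and Zfp120 the widest difference between lines, with 96% of haploid cells against 56.5% and 52.2% of the diploid homologs. Neighbouring genes share their bins, so each cluster counts as 1 observation of its domain.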

How the data were processed

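Single nuclei had been sequenced after whole-genome amplification. Per the methods, the authors mapped reads to mm10 with Bowtie2, removed duplicates with SAMtools, counted reads in 50 kb windows, divided by control cells, and deposited a centred, scaled and median-smoothed score per cell. They segmented and binarized it, and the deposited states (0 or 1) of diploid cells were split by homolog where a segment's parsed reads differed; the limit was slightly nearer 0 on the 129 side. Small differences in copy number are smoothed away, and the depth of each cell is unknown. Outlier cells had been removed by the authors. Of 52685 bins, 49588 had a state in all cells used; 24 columns of cells without a matching label were not used.

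From these, net counts, domains, schedules, shares and gene overlaps were computed with Python 3.11.15, numpy 2.4.6 and pandas 2.3.3, and tested on simulated data. The schedule ranked the haploid mean score (scored in 50% of cells or more) over 10 h. Lead domains were the 12 with the highest net count, ties by bins, then position; genes were named in full up to 8 per domain, and listed genes at members were named, neighbouring receptor genes by the first and last. Some items are not reported here. The members and lists were chosen with earlier results of these data known. Alternatives left out cells, calls or bins, or changed thresholds, the schedule and the reference.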

Additional observations from a re-analysis of the deposited data

Results flagged for a closer look

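The X chromosome was outside the autosomal comparison. Of its 2845 bins 17 had a net count of 2 or more toward 129, which was 0.598%, against 4.30% of autosomal bins, and they are listed here because the autosomal comparison did not use them. They lay in 3 stretches, of 13 bins in E7 and H9, 2 bins in D10 and H4 and 2 bins in F6 and H4. Toward Castaneus 1 bin had a net count of 2 or more. Some 129-only bin on the X chromosome was present in 11 cells. Any 129-only cell was found in 281 X-chromosome bins and any Castaneus-only cell in 368. Loss of an X chromosome in diploid cells was not tested here.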

How the results depend on the processing

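No paired analysis was possible because a well number marks nothing but a cell, with no partner in the other line. Of 59 alternatives over 8 results, apart from leaving out single cells, 43 kept direction and size, 9 moved and 7 reversed. A shift counted as moved when it passed 1.5 times for counts or the spread over left-out cells for values. Some of the 43 could not differ. No cell was 129-only in over 25% of a chromosome, so setting such calls aside changed nothing. Keeping only bins scored in 50% of cells of each line left the 1957 members with a scheduled time, so their median stayed. Leaving out 1 cell at a time gave 1509 to 2009 member bins and 147 to 195 domains, the lowest without F11. The count fell to 636 bins in 56 domains without the 5 cells with most 129-only bins, to 380 bins in 47 domains at a net count of 3 or more, and, chosen after seeing the data, to 979 bins in 95 domains without row H. The median scheduled time of members (5.20 h) crossed 5 h with mid-S-phase cells only (4.95 h), at a net count of 3 or more (4.94 h), without row H (4.81 h) and by 1 value per domain (4.94 h). The haploid minus diploid difference (1.09 points) was -1.09 at a net count of 3 or more, -0.70 against the 129 homolog alone and 3.22 against Castaneus alone. Counting all annotated genes gave 15.96 per Mb. The excess of differing haploid pairs, a result added with the data seen, was -0.69 points at a net count of 3 or more and 1.67 without row H. By the smoothed score the haploid cells were higher by 0.5 or more at 33 of 1957 members (1.69%, against 0.787% of all bins) and lower at 23 (1.18%, against 1.33%). Causes were not tested. Read depths were unknown, and stretches with few parsed reads could not be called.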
